A study of Homo sapiens with 8 samples.

Results

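Integrin and laminin genes were followed in 2 human squamous carcinoma lines treated for 16 h with an inhibitor labelled NEDD8i or with DMSO, its solvent control. Members were taken by gene symbol: the 25 genes of integrin alpha and beta subunits, the 12 genes of laminin chains, and 3 partners, DST, PLEC and CD151. These are 40 of the 61533 genes in the count tables. The libraries were A431 NEDD8i, A431 DMSO, CAL27 NEDD8i and CAL27 DMSO, 2 of each. A431 is an established line from an epidermoid carcinoma and CAL27 one from a squamous carcinoma of the tongue, so each group stands for a single line. The labels give neither the identity nor the dose of NEDD8i nor the media, and the file headers name its libraries MLN, which the labels do not explain. They do not say whether replicate libraries stem from separate cultures, and a p-value here reflects only how far these libraries spread, which may be technical. NEDD8 is a ubiquitin-like protein that is attached to cullins and thereby activates a large class of ubiquitin ligases. The comparison within each line asks how transcripts respond when that pathway is inhibited.

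Integrins are cell surface receptors made of an alpha and a beta subunit that bind extracellular matrix or other cells and link them to the cytoskeleton. Laminins are trimers of an alpha, a beta and a gamma chain and form the sheet-like core of basement membranes. Basal keratinocytes, the cells from which squamous carcinomas take many of their traits, sit on a laminin that holds the LAMA3 and LAMB3 chains. They grip it with ITGA6-ITGB4 in hemidesmosomes, where PLEC (plectin) and DST (dystonin) tie the receptor to keratin filaments and the tetraspanin CD151 sits beside it. The same cells also bind laminin with ITGA3-ITGB1, collagen with ITGA2-ITGB1 and fibronectin with ITGA5-ITGB1, and the ITGAV integrins with ITGB6 or ITGB8 are known for activating latent TGF-beta.

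Libraries were made with a kit that reads the 3' ends of polyadenylated transcripts, and each held 49037868 to 62509817 counts. Levels are given as CPM (counts scaled to library size) and are compared between libraries for the same gene, not between genes. Log2 changes are NEDD8i over DMSO with an approximate standard error. Gene coordinates are those of the count tables on GRCh38. A gene is called when its adjusted p in edgeR's quasi-likelihood test, adjusted over 18738 genes tested, was under 0.05. Of the 40 members 34 had enough counts to be tested, and ITGA8, ITGA9, ITGA11, ITGAL, LAMA1 and LAMB4 did not. All 9 squamous markers had counts in every group, with summed levels of 13412 to 13967 CPM in A431 NEDD8i, 9865 to 10004 CPM in A431 DMSO, 20853 to 21622 CPM in CAL27 NEDD8i and 14723 to 14751 CPM in CAL27 DMSO libraries. They did not all move with these sums. In A431 6 were called higher and 2 lower, and in CAL27 6 higher and 3 lower, where 43.6% and 49.6% of all genes tested were called. Mitochondrial genes took 1.96% and 2.27% of counts in A431 NEDD8i against 2.69% and 3.15% in A431 DMSO libraries, and 1.45% and 1.02% in CAL27 NEDD8i against 1.77% and 1.56% in CAL27 DMSO libraries. The part of this difference in the results was not tested.

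Receptor genes of the hemidesmosome fell in both lines while ITGB1, ITGA2 and ITGA5 rose. The ITGB1 rise in A431 was small (log2 0.10 ± 0.04), and its call depended on single libraries, as given below. Of the keratinocyte laminin, LAMB3 was called only in CAL27, where it rose, and LAMA3 only in A431, where it fell. In A431, 17 of the 34 tested members were called, 9 higher and 8 lower, where 43.6% of all genes tested were called, 22.5% higher and 21.1% lower. In CAL27, 22 of 34 were called, 10 higher and 12 lower, against 49.6% of all genes tested, 23.2% higher and 26.4% lower. These shares, 50% and 64.7%, were not tested against the background. The median log2 change of tested members was 0.05 in A431 and -0.36 in CAL27, beside -0.01 and -0.04 over all genes tested. Without adjustment, 20 members in A431 and 22 in CAL27 had p under 0.05. Among calls of at least 2-fold, A431 had 2 members (13.4% of all genes) and CAL27 had 8 (18.7% of all genes). They were ITGB3, higher (5.48% of all genes), and ITGA4, lower (7.93%), in A431. In CAL27 they were LAMB3 and LAMA2, higher (6.43% of all genes), and ITGB4, ITGB6, ITGA4, ITGAM, LAMA5 and LAMB2, lower (12.3%). The members called higher in both lines included ITGB1, ITGA2, ITGA5, ITGB5, ITGB8 and CD151, and those called lower in both were ITGA3, ITGA6, ITGB4, ITGA4, ITGB2 and LAMA5. No member was called in opposite directions, and ITGA7, ITGA1, ITGA10, ITGA2B, ITGAE, ITGAX, ITGB7 and LAMC3 were called in neither line. The shares of all genes called alike, oppositely or in neither line were not computed. How the members compare with other genes in this respect is therefore not known. In bulk RNA a lower level can come from fewer cells with the transcript or from less transcript per cell, and these cannot be told apart.

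**Figure D1:**
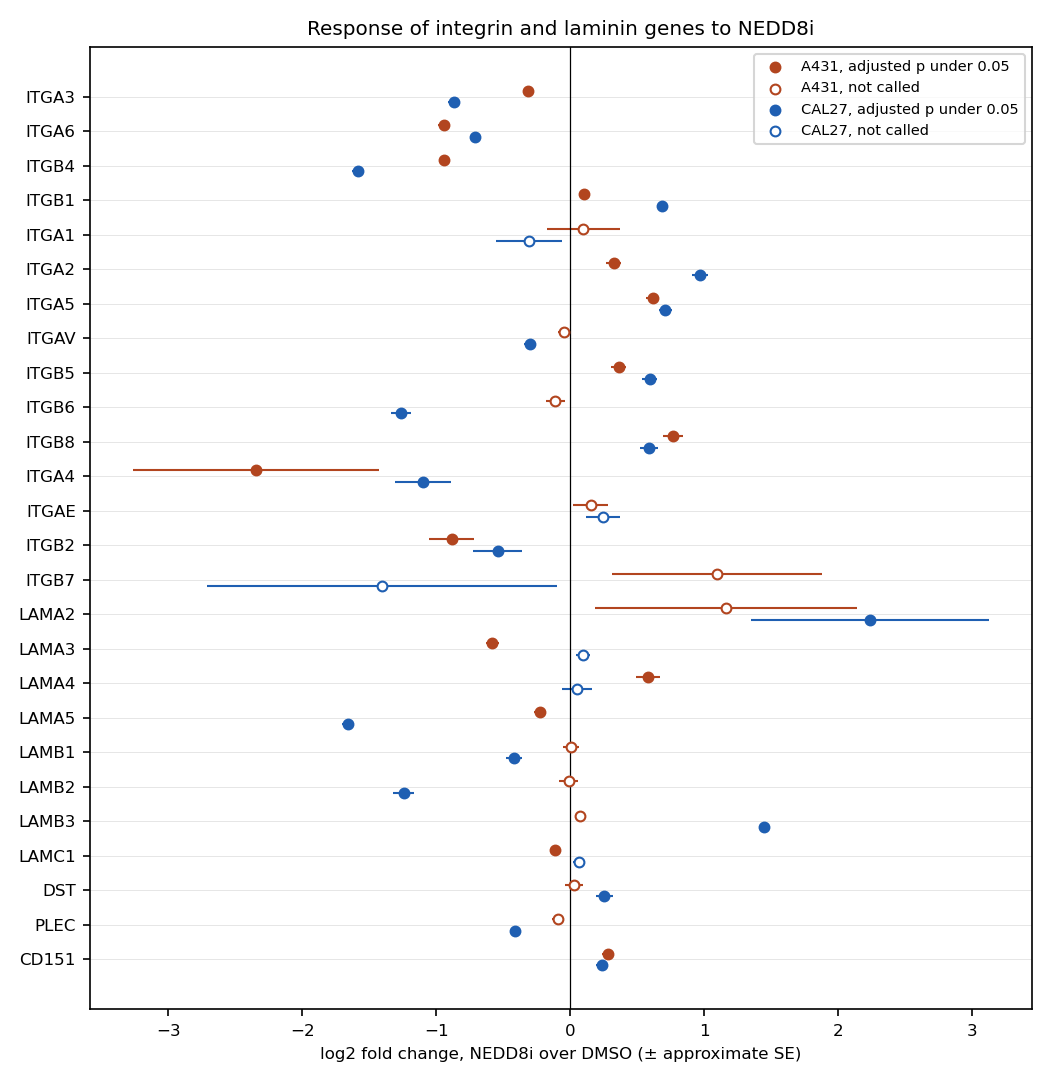
Log2 change under NEDD8i over DMSO (horizontal axis) with its approximate standard error for 26 tested members that reached a mean of 1 CPM in a group and had counts in every group. Filled points were called at adjusted p under 0.05, A431 in red and CAL27 in blue. ITGB4, ITGA6 and ITGA3 lie left of 0 in both lines, and LAMB3, LAMA5, LAMB2 and ITGB6 lie farther from 0 in CAL27 than in A431.

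Among the laminin-binding integrin subunits, ITGA3, ITGA6 and ITGB4 were lower with NEDD8i in both lines, and ITGA7, the subunit known from muscle, was not called. ITGB4, the beta subunit whose long tail anchors plectin, lies at chr17:75721328-75757818, plus strand. It had 363 and 361 CPM in A431 NEDD8i against 690.1 and 699 CPM in A431 DMSO libraries. In CAL27 it had 250.4 and 251 CPM in NEDD8i against 761 and 748 CPM in DMSO libraries. The NEDD8i libraries lay below every DMSO library in both lines. The log2 change was -0.94 ± 0.04 in A431 (1.92-fold lower, adjusted p = 2.43e-12) and -1.59 ± 0.04 in CAL27 (3.01-fold lower, adjusted p = 2.14e-15; edgeR). ITGA6, its only alpha partner, had 351 and 355 CPM in A431 NEDD8i against 663 and 694 CPM in A431 DMSO libraries, and 406 and 413 CPM in CAL27 NEDD8i against 658 and 682 CPM in CAL27 DMSO libraries. Its log2 change was -0.94 ± 0.04 in A431 and -0.71 ± 0.04 in CAL27 (edgeR adjusted p = 5.53e-12 and 1.32e-10). No test compared these genes with each other, and 5.86% of the exonic bases of ITGA6 overlap other genes. ITGA3, the alpha subunit of the laminin receptor outside hemidesmosomes, had 678 and 679 CPM in A431 NEDD8i against 829 and 861 CPM in A431 DMSO libraries, and 435 and 422 CPM in CAL27 NEDD8i against 777 and 789 CPM in CAL27 DMSO libraries. The groups did not overlap in either line, with log2 changes of -0.32 ± 0.04 in A431 and -0.87 ± 0.04 in CAL27 (edgeR adjusted p = 2.60e-06 and 4.69e-12). ITGA7 had at most 0.543 CPM in any library.

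ITGB1, the beta subunit shared by most matrix receptors of these cells, moved the other way. It averaged 1365 ± 5.4 CPM in A431 NEDD8i and 1272 ± 39.8 CPM in A431 DMSO libraries, and 411 ± 2.74 CPM in CAL27 NEDD8i and 255 ± 1.88 CPM in CAL27 DMSO libraries (SD, n = 2 each; adjusted p from edgeR). The rise was 0.69 ± 0.04 on the log2 scale in CAL27 (1.61-fold, adjusted p = 7.15e-11) and 0.10 ± 0.04 in A431 (adjusted p = 0.0341), where the call was lost without A431 NEDD8i replicate 1 (0.117), A431 NEDD8i replicate 2 (0.0797) or A431 DMSO replicate 1 (0.201). ITGA2, its collagen-binding partner in keratinocytes, averaged 227 ± 12.9 CPM in A431 NEDD8i and 181 ± 4.91 CPM in A431 DMSO libraries, and 204 ± 9.69 CPM in CAL27 NEDD8i and 104 ± 4.94 CPM in CAL27 DMSO libraries. It rose in both lines, by 0.32 ± 0.06 in A431 and 0.97 ± 0.06 in CAL27 on the log2 scale (edgeR adjusted p = 1.14e-04 and 1.54e-10). ITGA1, the other collagen receptor with steady counts, was not called in either line, with means of 2.16 CPM in A431 NEDD8i, 2.01 CPM in A431 DMSO, 5.42 CPM in CAL27 NEDD8i and 6.69 CPM in CAL27 DMSO libraries. ITGA10 and ITGA11, known from cartilage and from fibroblasts, had at most 18 and 8 counts in any library.

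The receptors for fibronectin, vitronectin and latent TGF-beta split within CAL27, where ITGA5, ITGB5 and ITGB8 rose while ITGAV and ITGB6 fell. In A431, 4 of the 7 tested members of this group were called, and these, ITGA5, ITGB5, ITGB8 and ITGB3, rose. Of all genes tested, 22.5% were called higher and 21.1% lower in A431. The shares in CAL27 were 23.2% higher and 26.4% lower. ITGA5, the fibronectin receptor subunit, averaged 258 ± 3.23 CPM in A431 NEDD8i and 168 ± 2.64 CPM in A431 DMSO libraries, and 106 ± 0.533 CPM in CAL27 NEDD8i and 64.7 ± 1.54 CPM in CAL27 DMSO libraries. Its log2 rise of 0.62 ± 0.05 in A431 and 0.71 ± 0.05 in CAL27 was of like size (edgeR adjusted p = 9.53e-09 and 1.44e-09), with a difference of 0.09 ± 0.07 that was not called. ITGB5, a vitronectin receptor subunit, rose by 0.36 ± 0.06 in A431 and 0.59 ± 0.06 in CAL27. ITGB8 rose by 0.77 ± 0.08 in A431 and 0.59 ± 0.07 in CAL27 (edgeR adjusted p at most 3.42e-05 for these 4 changes). ITGAV, the alpha subunit they share, changed by -0.30 ± 0.05 in CAL27 (edgeR adjusted p = 3.29e-05) and by -0.05 ± 0.05 in A431 (not called).

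ITGB6 is an epithelial beta subunit at chr2:160099667-160200313, minus strand. It had 23.0 and 24.9 CPM in CAL27 NEDD8i against 56.2 and 58.9 CPM in CAL27 DMSO libraries. In A431 it had 67.4 and 72.7 CPM in NEDD8i against 73.9 and 77.3 CPM in DMSO libraries. The CAL27 groups stood well apart, with a log2 change of -1.26 ± 0.07 (2.4-fold lower, edgeR adjusted p = 1.47e-10). The A431 groups did not overlap either, but the change of -0.11 ± 0.07 was not called (edgeR adjusted p = 0.225). ITGB3, the beta subunit of the platelet fibrinogen receptor and of the ITGAV vitronectin receptor, lies at chr17:47253827-47313743, plus strand. It had 74 and 55 counts (1.62 and 1.0 CPM) in A431 NEDD8i libraries and 0 counts in both A431 DMSO libraries, and 0 in every CAL27 library. A floor of 3 counts over the A431 DMSO libraries gave a bound of 46.6-fold. That bound covers counting error only, and is too high because each mate was counted. ITGB3 was called higher in A431 NEDD8i (edgeR adjusted p = 4.17e-04). The DESeq2 Wald test did not call it (adjusted p = 0.14, range 1.31e-07 to 0.14 over the 14 alternatives), and 35.7% of its exonic bases overlap another annotated gene. ITGA2B, the platelet partner of ITGB3, stayed at 0.0875 to 0.288 CPM over the 8 libraries, and was not called. Of 5 platelet markers PF4, PPBP and GP9 had 0 counts in every A431 library, and the sum of all 5 was 0.0364 to 0.0875 CPM in A431 NEDD8i against 0.0695 to 0.155 CPM in A431 DMSO libraries. ITGA8 had no count in any library.

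Among integrins known from leukocytes, of which 6 of 8 could be tested, none rose. ITGA4 and ITGB2 fell in both lines and ITGAM in CAL27. ITGA4, which binds VCAM1 and fibronectin and lies at chr2:181457207-181538940, plus strand, had 5.46 and 7.72 CPM in CAL27 NEDD8i against 13.7 and 14.7 CPM in CAL27 DMSO libraries. The groups did not overlap, with a log2 change of -1.10 ± 0.21 (2.15-fold lower, edgeR adjusted p = 2.57e-04). In A431 it had 0 and 2 counts (0 and 0.0364 CPM) in NEDD8i against 6 and 6 counts (0.104 and 0.116 CPM) in DMSO libraries, a ratio of 0.181 (counting interval 0.0196 to 0.812; edgeR adjusted p = 0.0483). That call was lost without A431 NEDD8i replicate 1 (0.246), A431 DMSO replicate 1 (0.0859), A431 DMSO replicate 2 (0.113), CAL27 DMSO replicate 1 (0.0522) or CAL27 DMSO replicate 2 (0.0513). A share of 38.2% of its exonic bases overlap CERKL. The counting interval takes counts as independent, but each mate of a read pair was counted, so it is too narrow. ITGB2, the beta subunit of the leukocyte receptors, averaged 9.93 ± 0.26 CPM in A431 NEDD8i and 18.3 ± 0.469 CPM in A431 DMSO libraries, and 4.65 ± 0.707 CPM in CAL27 NEDD8i and 6.75 ± 1.87 CPM in CAL27 DMSO libraries. It fell by 0.89 in A431 and 0.54 in CAL27 on the log2 scale (edgeR adjusted p = 3.67e-04 and 0.0194). The CAL27 call was lost without CAL27 NEDD8i replicate 1 (0.139) or CAL27 DMSO replicate 2 (0.469).

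ITGAM, an alpha partner of ITGB2 at chr16:31259967-31332892, plus strand, had 2 and 0 counts (0.0372 and 0 CPM) in CAL27 NEDD8i against 18 and 52 counts (0.334 and 0.787 CPM) in CAL27 DMSO libraries. The ratio was 0.0302 (counting interval 0.00358 to 0.113, too narrow as for ITGA4), and ITGAM was called lower (edgeR adjusted p = 0.0235). The call was lost without CAL27 NEDD8i replicate 2 (0.149), CAL27 DMSO replicate 1 (0.0551) or CAL27 DMSO replicate 2 (0.239). In A431 it had 0 and 12 counts in NEDD8i against 0 and 0 in DMSO libraries and was not called, though it was called without A431 NEDD8i replicate 1 (0.0229). ITGAE, which pairs with ITGB7 to bind E-cadherin, was not called at means of 9.96 CPM in A431 NEDD8i, 8.93 CPM in A431 DMSO, 16.1 CPM in CAL27 NEDD8i and 13.6 CPM in CAL27 DMSO libraries. ITGB7 and ITGAX had at most 81 and 45 counts in a library and were not called, and 51.8% of the exonic bases of ITGB7 overlap ZNF740. ITGAL had at most 6 counts and ITGA9 at most 3. Of the 8 leukocyte markers, 3 had counts in each group, 2 could be tested, and CD14 alone was called, lower in both lines. Their summed levels were 0.875 to 1.82 CPM in A431 NEDD8i against 6.78 to 6.81 CPM in A431 DMSO libraries, and 2.57 to 2.60 CPM in CAL27 NEDD8i against 17.9 to 19.1 CPM in CAL27 DMSO libraries. Most of that sum was CD14, with 40 and 96 counts in A431 NEDD8i, 382 and 325 in A431 DMSO, 86 and 102 in CAL27 NEDD8i and 879 and 1175 in CAL27 DMSO libraries. The defining leukocyte markers PTPRC, CD3D and MS4A1 had 0 counts in every library.

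**Figure D2:**
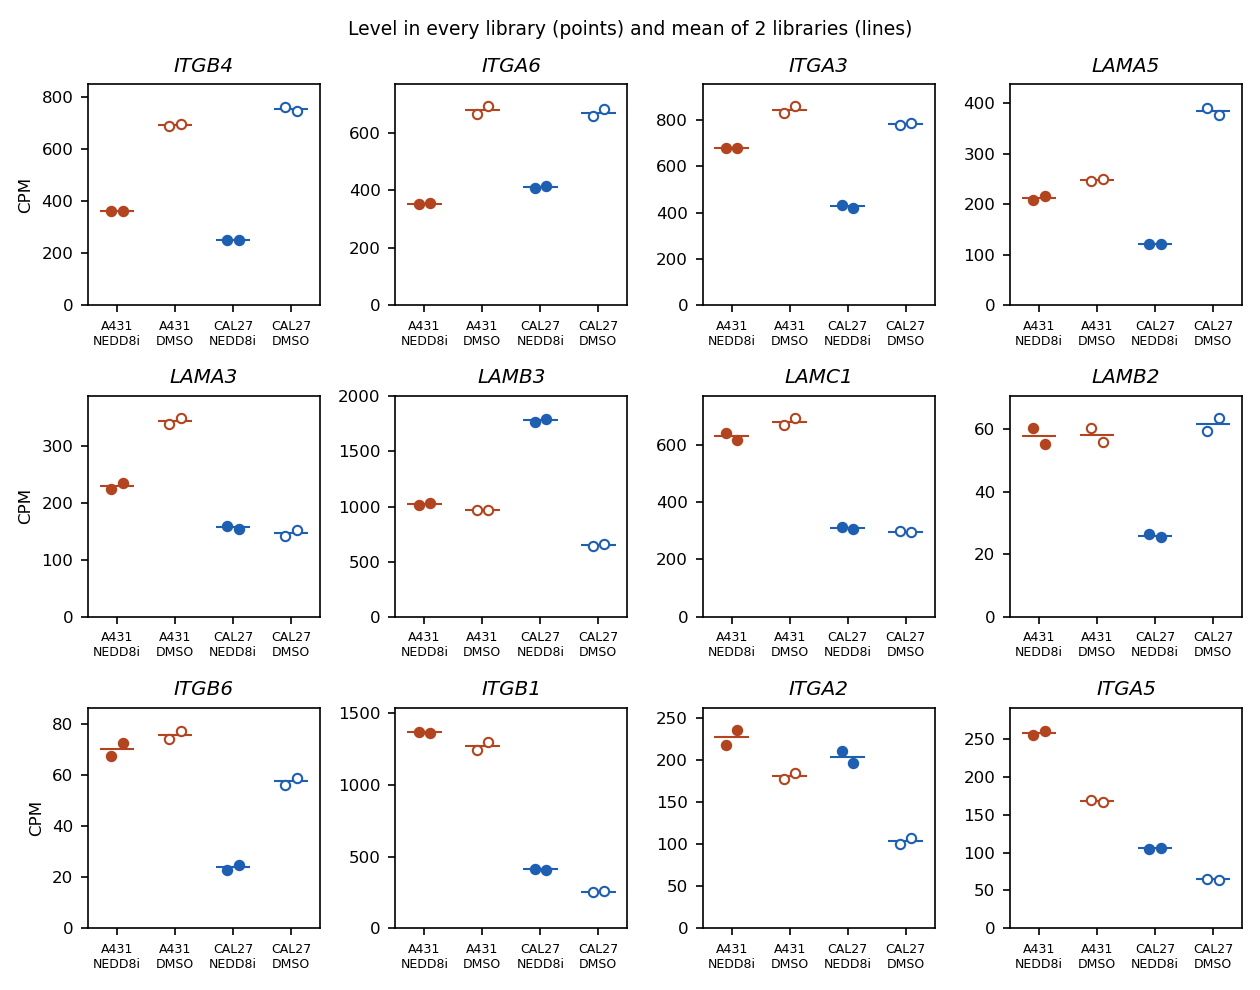
Level in CPM (vertical axis, from 0, with its own scale in each panel) of 12 members in every library (points) with the mean of the 2 libraries of a group (lines), with A431 in red, CAL27 in blue, NEDD8i filled and DMSO open. ITGB4, ITGA6 and ITGA3 are lower under NEDD8i in both lines. LAMB3 separates NEDD8i at 1765 and 1796 CPM from DMSO at 646 and 659 CPM in CAL27, while LAMA5, LAMB2 and ITGB6 show the opposite shift in that line.

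Among laminin chains LAMB3 rose in CAL27 while LAMA3 was not called there, and LAMA5, LAMB2 and LAMB1 fell. In A431, LAMA4 rose, LAMA3, LAMA5 and LAMC1 fell, and no beta chain was called. Promoters are printed for LAMB3 and LAMA3, the partner chains with different responses, and for LAMA5 and LAMB2. LAMA5 and LAMB2 fell at least 2-fold in CAL27 but not in A431. Each promoter is printed as the 250 bases before a RefSeq gene start on GRCh38.p14. The windows are chr1:209651375-209651624, minus strand for LAMB3, chr18:23872770-23873019, plus strand for LAMA3, chr20:62367313-62367562, minus strand for LAMA5, and chr3:49133051-49133300, minus strand for LAMB2. LAMB3 has 3 listed starts and the one with an AP-1 match is shown. The LAMA3 and LAMB3 windows lie inside the gene spans of the count tables, and that of LAMB2 partly so, since those spans begin farther upstream. Capitals mark matches, on either strand, to the AP-1 motif TGANTCA or the GC box GGGCGG, motifs that do not overlap each other here.

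The sequences run 5′ to 3′ towards the start.
LAMB3: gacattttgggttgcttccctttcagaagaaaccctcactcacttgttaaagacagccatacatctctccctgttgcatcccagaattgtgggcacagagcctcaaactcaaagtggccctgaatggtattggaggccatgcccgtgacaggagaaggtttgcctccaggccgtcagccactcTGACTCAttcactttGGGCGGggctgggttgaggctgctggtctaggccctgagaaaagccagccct
LAMA3: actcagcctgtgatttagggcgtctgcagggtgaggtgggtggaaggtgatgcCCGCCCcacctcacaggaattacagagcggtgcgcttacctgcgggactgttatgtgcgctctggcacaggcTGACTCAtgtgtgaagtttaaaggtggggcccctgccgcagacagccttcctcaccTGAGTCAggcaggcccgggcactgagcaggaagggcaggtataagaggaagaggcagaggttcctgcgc
LAMA5: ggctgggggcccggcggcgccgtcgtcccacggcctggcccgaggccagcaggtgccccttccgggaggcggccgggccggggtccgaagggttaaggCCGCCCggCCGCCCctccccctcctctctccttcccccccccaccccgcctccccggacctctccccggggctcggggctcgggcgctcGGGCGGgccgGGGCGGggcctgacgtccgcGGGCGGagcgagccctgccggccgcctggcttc
LAMB2: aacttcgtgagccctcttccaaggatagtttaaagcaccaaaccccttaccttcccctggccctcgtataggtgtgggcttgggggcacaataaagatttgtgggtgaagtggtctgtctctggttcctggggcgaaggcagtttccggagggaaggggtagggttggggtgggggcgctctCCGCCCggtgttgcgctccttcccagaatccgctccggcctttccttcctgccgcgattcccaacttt

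LAMB3 held TGACTCA 67 bases and a GC box 52 bases before the start. In LAMA3 the matches TGACTCA and TGAGTCA stood 125 and 69 bases before the start, with a GC box at 197 bases. LAMA5 held 5 GC boxes and LAMB2 held 1, and neither window held the AP-1 letters. Of the 40 members 27 had a promoter in the RefSeq table, in 36 windows. Those of LAMA3 and LAMB3 printed above were the 2 of the 36 with the AP-1 motif, which 6.57% of the 35116 windows of all genes held. The GC box stood in 18 of the 36 windows and in 42.6% of all windows. Of the other motifs searched on both strands, TGACNNNGC (antioxidant response element) stood in 3 of the 36 windows and in 10.9% of all windows, and GGAATG (TEAD) in 5 of the 36 and in 11.9% of all windows. Which start these cells used was not measured, and a match is only a run of letters.

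LAMB3, the beta chain of the keratinocyte laminin, lies at chr1:209614870-209652425, minus strand. It had 1765 and 1796 CPM in CAL27 NEDD8i against 646 and 659 CPM in CAL27 DMSO libraries. A431 had 1011 and 1028 CPM of LAMB3 in NEDD8i against 965 and 971 CPM in DMSO libraries. The CAL27 groups were far apart, 2.73-fold higher with NEDD8i (log2 1.45 ± 0.04, edgeR adjusted p = 2.01e-15). In A431 the change was 0.08 ± 0.03 and not called (edgeR adjusted p = 0.092), though it was called without CAL27 NEDD8i replicate 1 (0.029) or CAL27 NEDD8i replicate 2 (0.0279). LAMA3, the alpha chain, averaged 229.8 ± 8.36 CPM in A431 NEDD8i and 344 ± 7.35 CPM in A431 DMSO libraries, and 157 ± 4.61 CPM in CAL27 NEDD8i and 147 ± 7.0 CPM in CAL27 DMSO libraries. It fell in A431 (-0.58 ± 0.05, edgeR adjusted p = 3.67e-08). In CAL27 it was not called (0.10 ± 0.05, edgeR adjusted p = 0.128). Of the 14 alternatives, 3 called it higher there. These were the DESeq2 Wald test (adjusted p = 0.0286), and edgeR with DESeq2 size factors or with only genes of at least 1 CPM.

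LAMA5, the alpha chain of the broadly expressed epithelial laminins, lies at chr20:62309065-62367312, minus strand. It had 121 and 122 CPM in CAL27 NEDD8i against 391 and 376 CPM in CAL27 DMSO libraries. A431 had 208 and 216 CPM of LAMA5 in NEDD8i against 246 and 250.4 CPM in DMSO libraries. NEDD8i libraries lay below DMSO libraries in both lines, 3.16-fold in CAL27 (log2 -1.66 ± 0.05, edgeR adjusted p = 9.88e-15) and 1.17-fold in A431 (log2 -0.23 ± 0.04, adjusted p = 4.49e-04). LAMB2, a beta chain that can pair with it, lies at chr3:49121114-49133118, minus strand. It had 26.4 and 25.6 CPM in CAL27 NEDD8i against 59.6 and 63.5 CPM in CAL27 DMSO libraries. In A431 it had 60.3 and 55.2 CPM in NEDD8i against 60.5 and 56.0 CPM in DMSO libraries. The CAL27 groups did not overlap (log2 -1.24 ± 0.08, 2.37-fold lower, edgeR adjusted p = 3.08e-10), whereas the A431 libraries of the groups overlapped (log2 -0.01 ± 0.07, adjusted p = 0.942). LAMB1, the other common beta chain, changed by -0.42 ± 0.06 in CAL27 (edgeR adjusted p = 1.58e-05) and 0.00 ± 0.06 in A431 (not called). LAMC1, the common gamma chain, averaged 629.8 ± 18.0 CPM in A431 NEDD8i and 681 ± 17.2 CPM in A431 DMSO libraries, and 309 ± 4.21 CPM in CAL27 NEDD8i and 296 ± 2.51 CPM in CAL27 DMSO libraries. Its small fall in A431 (-0.11 ± 0.04, edgeR adjusted p = 0.0325) lost its call without A431 NEDD8i replicate 1 (0.0563), A431 NEDD8i replicate 2 (0.33), A431 DMSO replicate 1 (0.054), A431 DMSO replicate 2 (0.202), CAL27 DMSO replicate 1 (0.0587) or CAL27 DMSO replicate 2 (0.0602).

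LAMA4, a chain known from vessels and muscle, averaged 99.7 ± 0.17 CPM in A431 NEDD8i and 66.5 ± 0.668 CPM in A431 DMSO libraries, and 8.89 ± 0.944 CPM in CAL27 NEDD8i and 8.51 ± 1.5 CPM in CAL27 DMSO libraries. It rose in A431 (0.58 ± 0.09, edgeR adjusted p = 3.65e-05) and was not called in CAL27. LAMA2, the muscle chain at chr6:128883138-129516566, plus strand, had 103 and 117 counts (1.91 and 1.95 CPM) in CAL27 NEDD8i against 16 and 34 counts (0.297 and 0.515 CPM) in CAL27 DMSO libraries. The CAL27 groups did not overlap (log2 2.24 ± 0.89, 4.72-fold higher, edgeR adjusted p = 0.0465), but the call was lost without CAL27 NEDD8i replicate 1 (0.0963), CAL27 NEDD8i replicate 2 (0.114), CAL27 DMSO replicate 1 (0.209) or CAL27 DMSO replicate 2 (0.095). In A431 it had 0 and 46 counts in NEDD8i against 15 and 6 in DMSO libraries, so the NEDD8i replicates lay on both sides of DMSO. That change (1.16 ± 0.98) was not called, and without A431 NEDD8i replicate 1 or 2 it was called in opposite directions (2.13 with adjusted p = 0.0159, and -6.40 with adjusted p = 0.0144). LAMC3 had at most 22 counts in a library and was not called. LAMB4, which could not be tested, had 31 and 6 counts in CAL27 NEDD8i against 0 and 4 in CAL27 DMSO libraries and none in A431, and LAMA1 had 4 counts in a single A431 DMSO library. The 6 fibroblast markers, 4 or 5 of them with counts in a group, also had lower summed levels, 17.6 to 18.4 CPM in A431 NEDD8i against 35.4 to 38.97 CPM in A431 DMSO libraries and 6.49 to 10.8 CPM in CAL27 NEDD8i against 20.8 to 24.1 CPM in CAL27 DMSO libraries. COL1A2 was at 0 in A431 and COL3A1 in CAL27. The 5 endothelial markers, 3 or 4 of them with counts in a group, summed to 5.30 to 5.56 CPM in A431 NEDD8i against 19.6 to 21.9 CPM in A431 DMSO libraries and to 10.7 to 10.8 CPM in CAL27 NEDD8i against 6.01 to 6.63 CPM in CAL27 DMSO libraries, with KDR at 0 throughout. Their part in the laminin results was not tested.

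The linkers and the tetraspanin partner moved little. CD151 rose in both lines, by 0.28 ± 0.04 in A431 and 0.24 ± 0.04 in CAL27 (edgeR adjusted p = 4.63e-05 and 2.20e-04), with means of 393 ± 13.6 CPM in A431 NEDD8i and 322 ± 10.7 CPM in A431 DMSO libraries, and 252 ± 1.53 CPM in CAL27 NEDD8i and 213 ± 3.55 CPM in CAL27 DMSO libraries. PLEC, plectin, averaged 645 ± 23.2 CPM in CAL27 NEDD8i and 856 ± 10.4 CPM in CAL27 DMSO libraries and fell there (-0.41 ± 0.04, edgeR adjusted p = 2.18e-07). In A431 its change of -0.09 ± 0.04 was not called. DST, whose epithelial form sits in hemidesmosomes, rose in CAL27 (0.25 ± 0.06, edgeR adjusted p = 0.00314) and was not called in A431 (0.03 ± 0.07). Counts were made per gene and do not tell the isoforms of DST apart.

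The response of the lines was compared gene by gene by testing the CAL27 response minus the A431 response. A total of 18 of the 34 tested members differed, 8 toward a more positive and 10 toward a more negative response in CAL27, where 34.0% of all genes tested differed, 14.2% and 19.8% in these directions. The members' median difference was -0.22, beside -0.04 over all genes. At 2-fold or more, 5 members differed (10.8% of all genes): LAMB3 by 1.37 ± 0.05, LAMA5 by -1.43 ± 0.06, LAMB2 by -1.23 ± 0.11 and ITGB6 by -1.15 ± 0.10 (edgeR adjusted p from 2.03e-12 to 1.05e-07), and ITGAM, whose value rests on a group with 0 counts. Of these 5, LAMB3 had the more positive response in CAL27 (3.78% of all genes) and the other 4 the more negative one (7.02%). In the hemidesmosome receptor, ITGB4 responded more negatively in CAL27 (-0.65 ± 0.05, edgeR adjusted p = 6.16e-08) and ITGA6 less so (0.23 ± 0.06, adjusted p = 0.00392). ITGA3 differed by -0.55 ± 0.05 (edgeR adjusted p = 4.15e-07). The rising subunits ITGB1 (0.58 ± 0.05) and ITGA2 (0.64 ± 0.08) and the chain LAMA3 (0.68 ± 0.07) had the more positive response in CAL27 (edgeR adjusted p at most 5.24e-06). LAMB1 (-0.42 ± 0.09), PLEC (-0.32 ± 0.06) and ITGAV (-0.25 ± 0.07) had the more negative one (edgeR adjusted p at most 0.00629). Several of the smaller calls were lost when a library was left out. ITGB5 (0.23 ± 0.08, edgeR adjusted p = 0.0359) was lost without A431 NEDD8i replicate 1 (0.0691), A431 NEDD8i replicate 2 (0.148), A431 DMSO replicate 1 (0.0612), A431 DMSO replicate 2 (0.0532), CAL27 NEDD8i replicate 2 (0.134) or CAL27 DMSO replicate 1 (0.121). LAMC1 (0.18 ± 0.06, adjusted p = 0.0248) was lost without A431 NEDD8i replicate 2 (0.167), A431 DMSO replicate 2 (0.0602), CAL27 NEDD8i replicate 1 (0.0591) or CAL27 DMSO replicate 2 (0.0673). LAMA4 (-0.53 ± 0.14, adjusted p = 0.00742) was lost without CAL27 DMSO replicate 2 (0.123), and ITGAM (adjusted p = 0.00879) without A431 NEDD8i replicate 2 (1.0) or CAL27 DMSO replicate 2 (0.0804). DST missed the threshold (edgeR adjusted p = 0.072) but was called without A431 NEDD8i replicate 2 (0.00551) or A431 DMSO replicate 1 (0.0301), with the replicate number as a block (adjusted p = 0.0205) and by DESeq2 (adjusted p = 0.022, range 0.00551 to 0.342 over the 13 alternatives). LAMA2, not called, was called without A431 NEDD8i replicate 2 (0.0013).

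The lines also differed without NEDD8i. Under DMSO, 12 tested members were higher and 15 lower in CAL27 than in A431, 27 of 34 in all, where 58.9% of all genes tested differed, 29.9% higher and 29.0% lower. At 2-fold or more 16 members differed (27.7% of all genes), 6 of them higher (15.8%) and 10 lower (11.9%). The median difference of tested members was -0.01, beside 0.05 over all genes. ITGA4 had 13.7 and 14.7 CPM in CAL27 DMSO against 0.104 and 0.116 CPM in A431 DMSO libraries. ITGB8 had 102 and 105 CPM in CAL27 DMSO against 16.9 and 15.4 CPM in A431 DMSO libraries. ITGA1 had 6.3 and 7.07 CPM in CAL27 DMSO against 1.7 and 2.31 CPM in A431 DMSO libraries. These subunits were the more abundant in CAL27, by log2 6.98 ± 0.34, 2.68 ± 0.07 and 1.74 ± 0.26 (edgeR adjusted p at most 1.79e-05). ITGB1 had 254 and 257 CPM in CAL27 DMSO against 1244 and 1300.3 CPM in A431 DMSO libraries. LAMA4 had 7.45 and 9.57 CPM in CAL27 DMSO against 67.0 and 66.1 CPM in A431 DMSO libraries. Both were lower in CAL27, by 4.98-fold and 7.78-fold (edgeR adjusted p = 1.06e-17 and 1.04e-13). Lower levels in CAL27 were also found for ITGB5 (-1.83), ITGA5 (-1.38), ITGB2 (-1.44), ITGA2 (-0.80), LAMA3 (-1.23), LAMC1 (-1.20), CD151 (-0.60), LAMB3 (-0.57) and ITGB6 (-0.39), as log2 differences with edgeR adjusted p at most 1.03e-04. LAMA5 (0.63), LAMB1 (0.46), DST (0.80), PLEC (0.32) and ITGAE (0.60) were higher in CAL27 (edgeR adjusted p at most 6.31e-04). ITGA6 was not called (-0.02 ± 0.04). The differences of ITGB4 (0.12 ± 0.04, edgeR adjusted p = 0.0119) and ITGA3 (-0.11 ± 0.04, adjusted p = 0.0200) were small, and were lost without A431 DMSO replicate 1 (0.0653), A431 DMSO replicate 2 (0.0548) or CAL27 DMSO replicate 1 (0.11) for ITGB4 and without A431 NEDD8i replicate 2 (0.0836), A431 DMSO replicate 2 (0.117), CAL27 DMSO replicate 1 (0.109) or CAL27 DMSO replicate 2 (0.0615) for ITGA3.

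Among genes with few counts, ITGAM, LAMC3 and ITGA10 had 0 counts in both A431 DMSO libraries. Against 3 counts over the A431 libraries, they were 21.2-fold, 13.3-fold and 6.97-fold higher in CAL27 DMSO libraries. Since each mate was counted, these folds are too high as bounds. The call of ITGAM (edgeR adjusted p = 0.00559) was lost without CAL27 DMSO replicate 2 (0.0700), and that of ITGA10 (adjusted p = 0.0459) without A431 NEDD8i replicate 1 (0.0588), A431 NEDD8i replicate 2 (0.0559), A431 DMSO replicate 1 (0.165), A431 DMSO replicate 2 (0.156), CAL27 NEDD8i replicate 1 (0.0662), CAL27 DMSO replicate 1 (0.0906) or CAL27 DMSO replicate 2 (0.23). ITGB7 (-3.37 ± 0.96, edgeR adjusted p = 0.00596) and ITGAX (-3.68 ± 1.11, adjusted p = 0.00891) were lower in CAL27 and lost their calls without CAL27 DMSO replicate 2 (0.0585) for ITGB7 and A431 DMSO replicate 2 (0.0541) or CAL27 DMSO replicate 1 (0.0663) for ITGAX.

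**Figure D3:**
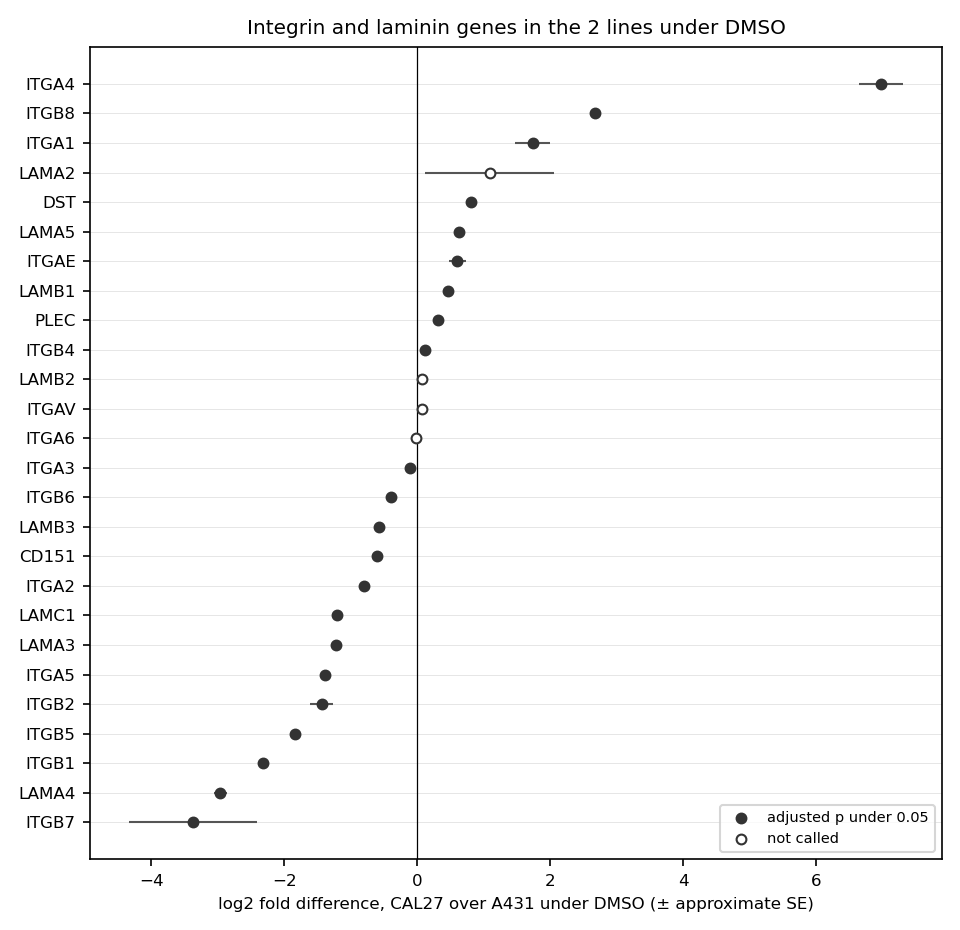
Log2 difference of CAL27 over A431 under DMSO (horizontal axis) with its approximate standard error, ordered by size. Drawn are 26 members with counts in both DMSO groups and a mean of 1 CPM in any group, NEDD8i groups included. ITGB7 and LAMA2 were under 1 CPM in both DMSO groups. Filled points were called at adjusted p under 0.05. ITGA4 and ITGB8 lie farthest right among the called, ITGB7, LAMA4 and ITGB1 farthest left, and ITGA6, ITGAV and LAMB2 lie near 0.

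Other genes of cell-matrix adhesion were described through 7 lists. Of all genes tested, 43.6% were called in A431 (22.5% higher, 21.1% lower) and 49.6% in CAL27 (23.2% higher, 26.4% lower). The lists were chosen with earlier results of these data known, and ILK was added after its values were seen. Their called shares therefore cannot be judged against these shares and were not tested. Cytoplasmic regulators of integrin activation were mostly higher in CAL27, 7 higher and 0 lower of 10 tested (median log2 change 0.20), and 5 higher and 3 lower in A431 (median 0.23). FERMT2 (kindlin-2) rose by 0.94 ± 0.13 in A431 and 1.38 ± 0.11 in CAL27, and FERMT3 (kindlin-3, the form of blood cells) by 3.09 ± 0.62 in A431 and 1.66 ± 0.37 in CAL27, on 12 and 38 counts in A431 NEDD8i against 4 and 2 in A431 DMSO libraries. TLN2, a talin, fell in A431 (-2.52 ± 0.37) and was not called in CAL27 (-0.72 ± 0.33). The small GTPase gene RAP1B rose in CAL27 (0.52 ± 0.05), and RAP1A fell in A431 (-0.30 ± 0.06) and rose in CAL27 (0.21 ± 0.06), a call lost without CAL27 NEDD8i replicate 1 (0.0596) or CAL27 DMSO replicate 2 (0.0509). ITGB1BP1, which binds the ITGB1 tail and restrains activation, changed by 0.33 ± 0.07 in A431 and 0.55 ± 0.07 in CAL27, and 39.6% of its exonic bases overlap other genes. FLNA, filamin A, rose in both lines (0.40 in A431 and 0.19 in CAL27).

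Focal adhesion kinases and adaptors went both ways, 9 higher and 8 lower of 23 tested in A431 (median 0.03) and 7 higher and 9 lower in CAL27 (median -0.14). TNS3, a tensin that binds beta subunit tails, had 11.7 and 11.8 CPM in A431 NEDD8i against 90.2 and 89.7 CPM in A431 DMSO libraries, and 41.8 and 37.2 CPM in CAL27 NEDD8i against 396 and 397 CPM in CAL27 DMSO libraries. It fell in both lines (-2.93 ± 0.07 in A431 and -3.33 ± 0.06 in CAL27, edgeR adjusted p = 9.17e-16 and 5.16e-17), as did PARVB, a parvin (-0.95 ± 0.14 in A431 and -2.62 ± 0.15 in CAL27). The LIM-domain protein gene ZYX rose by 0.81 ± 0.05 in A431 and 0.92 ± 0.05 in CAL27, and FBLIM1 (migfilin) by 1.29 ± 0.06 in A431 and 1.21 ± 0.06 in CAL27. NEDD9, a docking protein, fell in A431 (-2.28 ± 0.15) and was not called in CAL27 (-0.10 ± 0.14), and LIMS2 fell in A431 (-3.95 ± 0.84). BCAR1, another docking protein, and ACTN4, an actinin, rose in A431 (0.29 and 0.20) and fell in CAL27 (-0.40 and -0.52). ILK could not be tested, with at most 15 counts in a library, and 83.8% of its exonic bases overlap other genes, where reads were dropped. The overlapped share was 16.8% for ACTN4.

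Of 14 tested basement membrane genes other than laminins, 7 were lower and 1 higher in A431 (median -0.39), and 9 were lower and 1 higher in CAL27 (median -1.02). COL7A1, the collagen of anchoring fibrils, fell by 1.06 in A431 and 1.67 in CAL27 on the log2 scale. HSPG2 (perlecan) changed by -0.40 ± 0.04 in A431 and -2.83 ± 0.05 in CAL27 (edgeR adjusted p = 4.79e-07 and 1.85e-17), with 40.2 and 39.6 CPM in CAL27 NEDD8i against 287 and 282 CPM in CAL27 DMSO libraries. The type IV collagen genes COL4A5 (-1.20 in A431 and -1.15 in CAL27) and COL4A6 (-0.93 in A431 and -0.75 in CAL27) fell in both lines. The COL4A6 call in A431 was lost without A431 NEDD8i replicate 2 (0.064) or A431 DMSO replicate 1 (0.114) and in CAL27 without CAL27 DMSO replicate 2 (0.0649). COL4A4 fell in A431 (-1.17 ± 0.26) and was not called in CAL27 (0.37 ± 0.44). COL4A3 had 17 and 10 counts in CAL27 NEDD8i against 0 in both CAL27 DMSO libraries. NID1 (nidogen) rose in A431 (0.55 ± 0.08, edgeR adjusted p = 3.36e-05, DESeq2 adjusted p = 0.587, range 1.83e-19 to 0.587 over the 14 alternatives). In CAL27 it had 4 and 2 counts in NEDD8i against 20 and 4 in DMSO libraries, and its call there was lost without CAL27 NEDD8i replicate 1 (0.0539), CAL27 NEDD8i replicate 2 (0.237) or CAL27 DMSO replicate 1 (0.923).

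Of the other laminin receptors, tetraspanins and the hemidesmosomal collagen, 1 was higher and 7 lower of 9 tested in A431 (median -0.16), and 4 were higher and 5 lower in CAL27 (median -0.36). The A431 count of 8 calls dropped to 4 without A431 NEDD8i replicate 2 and to 5 without A431 DMSO replicate 1 or 2. COL17A1, the transmembrane collagen of hemidesmosomes, had 222 and 231 CPM in A431 NEDD8i against 383 and 409 CPM in A431 DMSO libraries, and 364 and 336 CPM in CAL27 NEDD8i against 688 and 721 CPM in CAL27 DMSO libraries. It fell in both lines, as ITGB4 and ITGA6 did (-0.80 ± 0.05 in A431 and -1.01 ± 0.05 in CAL27, edgeR adjusted p = 6.83e-10 and 1.76e-11). DAG1 (dystroglycan) changed by -0.25 ± 0.05 in A431 and -1.85 ± 0.06 in CAL27. The tetraspanin gene CD82 changed by -0.16 ± 0.06 in A431 (edgeR adjusted p = 0.0391) and -0.95 ± 0.06 in CAL27. CD9, a further tetraspanin, fell in CAL27 (-0.44 ± 0.05). CD63 (-0.16 in A431 and 0.17 in CAL27), BCAM (-0.23 in A431 and 0.16 in CAL27) and SDC4 (-0.13 in A431 and 0.13 in CAL27) were called lower in A431 and higher in CAL27. Of these small changes, the A431 calls of CD63 and SDC4 were lost without A431 NEDD8i replicate 2 (0.119) or A431 DMSO replicate 1 (0.0601) for CD63 and A431 NEDD8i replicate 2 (0.237) or A431 DMSO replicate 1 (0.0903) for SDC4. The CAL27 calls were lost without CAL27 NEDD8i replicate 1 (0.0837) for BCAM and CAL27 NEDD8i replicate 2 (0.0892) or CAL27 DMSO replicate 1 (0.0537) for SDC4.

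Integrin ligands other than laminins were called in most cases, 8 higher and 4 lower of 14 tested in A431 (median 0.21) and 5 higher and 7 lower in CAL27 (median -0.45). Leaving out a library could lower the A431 count of 12 calls. SPP1 (osteopontin), a ligand of ITGAV integrins, had 1061 and 1027 CPM in A431 NEDD8i against 21.8 and 19.0 CPM in A431 DMSO libraries. In CAL27 it had 2052 and 2558 counts in NEDD8i against 6 and 7 in DMSO libraries. It rose in both lines (log2 5.67 ± 0.07 in A431 and 8.52 ± 0.15 in CAL27, edgeR adjusted p = 6.77e-19 and 4.11e-17). THBS1 (thrombospondin) fell in CAL27 (-2.36 ± 0.05, 5.14-fold lower), as did the tenascin-C gene TNC (-1.24 ± 0.05). Both were also called lower in A431, by smaller changes of -0.12 ± 0.05 and -0.24 ± 0.07 (edgeR adjusted p = 0.0401 and 0.00907). EDIL3 fell in both lines (-1.41 in A431 and -1.58 in CAL27). TGFB1 rose by 1.53 ± 0.07 in A431 and 0.65 ± 0.08 in CAL27. ICAM1, the ligand of ITGB2 integrins, rose in A431 (1.56 ± 0.13) and fell in CAL27 (-0.69 ± 0.10), and 29.3% of its exonic bases overlap other genes. LTBP1 and NPNT (nephronectin) had the same signs, with log2 changes of 0.90 and 0.26 in A431 and -0.68 and -0.26 in CAL27. The CAL27 call of LTBP1 was lost without CAL27 DMSO replicate 2 (0.135). The NPNT calls were lost without A431 NEDD8i replicate 1 (0.0969) or A431 DMSO replicate 2 (0.0732) in A431, and without A431 NEDD8i replicate 1 (0.0735), A431 NEDD8i replicate 2 (0.0529), A431 DMSO replicate 1 (0.056), A431 DMSO replicate 2 (0.0548), CAL27 NEDD8i replicate 2 (0.224) or CAL27 DMSO replicate 1 (0.600) in CAL27.

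Of the plakins other than DST and PLEC most fell in CAL27, 4 lower and 0 higher of 5 (median -0.89), and in A431 2 were higher and 1 lower (median 0.21), a count of 3 that dropped to 1 without A431 NEDD8i replicate 2 or A431 DMSO replicate 1. EPPK1 (epiplakin) changed by -2.63 ± 0.14 in CAL27 and 0.24 ± 0.11 in A431 (not called). EVPL and PPL, envoplakin and periplakin of the cornified envelope, fell in CAL27 (-1.13 ± 0.08 and -0.89 ± 0.06). EVPL was also called lower in A431, near the threshold (-0.19 ± 0.07, edgeR adjusted p = 0.0413). PPL rose in A431 (0.21 ± 0.06), a call lost without A431 NEDD8i replicate 2 (0.0841) or A431 DMSO replicate 1 (0.084). DSP, desmoplakin, fell in CAL27 by 0.29 on the log2 scale. MACF1 rose in A431 (0.70 ± 0.07). Among proteases and binding proteins of laminins, 1 was higher and 3 lower of 5 in A431 (median -0.55), and 1 was higher and 2 lower in CAL27 (median -0.64). BMP1, a protease that processes laminin chains, fell by 0.74 in A431 and 0.93 in CAL27. MMP14, a membrane protease that cleaves matrix proteins, rose by 0.70 ± 0.04 in A431 and 0.66 ± 0.04 in CAL27. NTN4, a netrin that binds laminin, fell in A431 (-0.55 ± 0.06). TLL2 had 0 counts in both A431 NEDD8i libraries against 30 and 11 in A431 DMSO libraries, and 43 and 38 in CAL27 NEDD8i against 233 and 336 in CAL27 DMSO libraries.

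**Figure D4:**
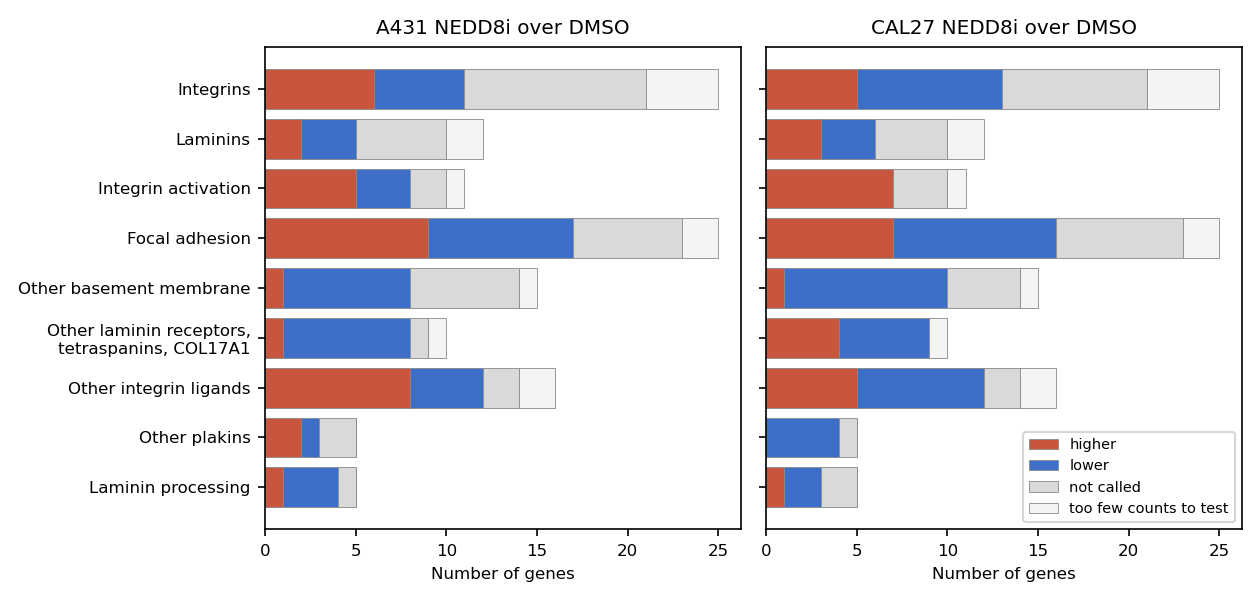
Number of genes (horizontal axis) called higher or lower with NEDD8i, tested but not called, or with too few counts to test, for the integrins, the laminins and 7 lists of related genes, in A431 (left) and CAL27 (right). Other basement membrane genes show 7 lower calls in A431 and 9 in CAL27, against 1 higher call in each line.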

How the data were processed

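Polyadenylated RNA of A431 and CAL27 cells was measured in 8 libraries, 2 for each line and treatment. Counts per gene are as the authors deposited them, and per the file headers they were made with featureCounts 2.0.8 against GENCODE 39 basic exons from filtered alignments, in paired-end mode with each mate counted, without regard to strand and without reads that map to several genes or places. No header or label names the filter. STAR and GRCh38 are named in the submitters' processing notes, as is DESeq2, whose results were not used. A read and its mate are not independent, so the depth of 49037868 to 62509817 counts overstates the number of molecules, and intervals and floors cover counting error only. A gene and an antisense partner cannot be told apart, and genes whose exons overlap others lose reads.

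Counts were tested here with edgeR 4.0.16 in R 4.3.3 (TMM scaling, filterByExpr, quasi-likelihood fit with a mean per group over all 8 libraries, Benjamini-Hochberg adjustment over 18738 genes, calls at adjusted p under 0.05). NEDD8i was set against DMSO within A431 and within CAL27, and further contrasts were the difference of these responses (CAL27 minus A431) and the DMSO libraries of CAL27 against those of A431. The standard error is the log2 change divided by the root of its F. CPM were computed on the TMM scale. A floor of 3 counts over a group was used to bound folds against 0, and intervals of ratios of counts are exact at 95% for independent counts. Mates are not independent, so these bounds are too high and these intervals too narrow. Alternatives were DESeq2 size factors, the DESeq2 1.42.0 Wald test, other filters, fits on 4 libraries, a replicate block, and leaving out each library. The 25 integrins, 12 laminins and 3 partners were matched by symbol (61369 of 61533 gene IDs have a symbol). The symbol rule uses no measured value, but this group of genes, the 7 lists and the markers were chosen with earlier results of these data known. Every member may be named, and of each list up to 4 genes per line with the largest called change and those called in opposite directions. Some genes counted among the members are not reported here by name. ILK was added after its values were seen. Exon overlaps were computed with GenomicRanges 1.54.1, and promoters are from RefSeq GRCh38.p14.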

Additional observations from a re-analysis of the deposited data

Results flagged for a closer look

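Members and named genes of related lists whose response to NEDD8i differed between the lines in edgeR's test of the difference itself are collected here, with the CAL27 response minus the A431 response on the log2 scale. The response was more positive in CAL27 for the members ITGA6 (0.23), ITGB1 (0.58), ITGA2 (0.64), ITGB5 (0.23), LAMA3 (0.68), LAMB3 (1.37) and LAMC1 (0.18). It was more negative in CAL27 for the members ITGA3 (-0.55), ITGB4 (-0.65), ITGAV (-0.25), ITGB6 (-1.15), LAMA4 (-0.53), LAMA5 (-1.43), LAMB1 (-0.42), LAMB2 (-1.23) and PLEC (-0.32). Adjusted p ranged from 2.03e-12 for LAMB3 to 0.0359 for ITGB5. The value of ITGAM (-10.47) rests on 0 counts in a group and is no measure of size. Calls lost without a library among the members, ITGB5, LAMC1, LAMA4 and ITGAM, are given with their values above.

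Of the related genes, those with the more positive response in CAL27 were TLN2 (1.80), RAP1A (0.51), RAP1B (0.60), LIMS2 (3.18), NEDD9 (2.18), COL4A4 (1.55), CD63 (0.33), BCAM (0.39), SDC4 (0.27), SPP1 (2.84) and NTN4 (0.47). The more negative response was found for FLNA (-0.21), PARVB (-1.67), BCAR1 (-0.69), TNS3 (-0.39), ACTN4 (-0.72), COL7A1 (-0.61), NID1 (-2.43), HSPG2 (-2.43), CD9 (-0.35), CD82 (-0.78) and DAG1 (-1.60). The same direction held for COL17A1 (-0.21), TNC (-1.0), THBS1 (-2.24), NPNT (-0.52), TGFB1 (-0.88), LTBP1 (-1.57), ICAM1 (-2.25), MACF1 (-0.83), DSP (-0.35), EPPK1 (-2.87), EVPL (-0.94) and PPL (-1.10). COL4A3 (7.13) and TLL2 (4.66) each rest on a group with 0 counts. Adjusted p ranged from 3.99e-14 for HSPG2 to 0.037 for TLL2. The difference of LIMS2 was lost without A431 NEDD8i replicate 1 (0.0982), A431 DMSO replicate 2 (0.137), CAL27 NEDD8i replicate 1 (0.146), CAL27 DMSO replicate 1 (0.0847) or CAL27 DMSO replicate 2 (0.0883). That of COL4A3 was lost without CAL27 NEDD8i replicate 1 (0.0516), CAL27 DMSO replicate 1 (0.0604) or CAL27 DMSO replicate 2 (0.0705). For COL4A4 the call ended without A431 DMSO replicate 1 (0.0804), CAL27 NEDD8i replicate 1 (0.166) or CAL27 DMSO replicate 1 (0.123). The difference of COL7A1 was lost without CAL27 DMSO replicate 2 (0.0786). That of NID1 was lost without CAL27 NEDD8i replicate 2 (0.101) or CAL27 DMSO replicate 1 (0.667). For COL17A1 the call ended without A431 NEDD8i replicate 2 (0.0947), A431 DMSO replicate 1 (0.14), CAL27 NEDD8i replicate 2 (0.0868) or CAL27 DMSO replicate 2 (0.173). The difference of NPNT was lost without CAL27 DMSO replicate 1 (0.0600). That of TLL2 was lost without A431 NEDD8i replicate 1 (0.106), A431 NEDD8i replicate 2 (0.139), A431 DMSO replicate 1 (0.0792), CAL27 NEDD8i replicate 1 (0.0507), CAL27 DMSO replicate 1 (0.0623) or CAL27 DMSO replicate 2 (0.0541). Values in parentheses beside libraries are edgeR adjusted p-values.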

How the results depend on the processing

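The number of members called ranged from 14 to 18 in A431 and from 19 to 23 in CAL27 over 14 alternatives, from 15 to 19 for the difference of responses and from 23 to 27 for the lines under DMSO over 13 alternatives. The counts were 17, 22, 18 and 27 as reported. Genes called ranged from 6864 to 8354 in A431 and from 7766 to 9788 in CAL27, against 8175 and 9291 as reported, and from 5240 to 6479 for the difference, against 6369. For the lines under DMSO they ranged from 9438 to 11200, against 11045. Of the members called, 13 of 17 in A431, 19 of 22 in CAL27, 14 of 18 for the difference and 21 of 27 between the lines kept their call under every alternative run. The log2 change of LAMA2 in A431, 1.16 as reported (edgeR adjusted p = 0.37), reversed to -6.40 without A431 NEDD8i replicate 2 (adjusted p = 0.0144) and was 2.13 without A431 NEDD8i replicate 1 (adjusted p = 0.0159). Leaving out replicate 2 leaves a NEDD8i library with 0 counts. The DESeq2 Wald test did not call ITGA4 in A431 (adjusted p = 0.0636), LAMA2 in CAL27 (0.274), NID1 and NPNT in CAL27 (0.0823 and 0.0732) or ITGA10 between the lines (0.063), and called PLEC (0.044) and ITGAM (0.049) in A431 and LAMC1 in CAL27 (0.0306). Without a filter on low counts edgeR adjusted p was 0.0528 for ITGA4 and 0.0582 for LAMC1 in A431 and 0.0546 for the difference of ITGB5. With genes of at least 1 CPM only, it was 0.124 for ITGA3 and 0.0342 for ITGAV between the lines. In fits on 4 libraries it was 0.197 for COL4A6 and 0.0713 for LTBP1 in A431, 0.208 for NPNT in CAL27, and 0.0463 for ITGAE in CAL27. Where leaving out a library left a group with a single library, that library was assumed to vary like the other groups. Replicate numbers were taken as names only, since deviations of same-numbered libraries from their group means correlated at 0.00559 in A431 and -0.0303 in CAL27. With a replicate block 17 members were called in A431, 22 in CAL27 and 19 for the difference. The difference of LIMS2 was lost there (adjusted p = 0.0553). Members under a mean of 1 CPM rest on few counts, and the cause of their lost calls was not tested.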
